A study of Mus musculus with 7 samples.

Results

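Of the 54532 features in the count table, 9 encode receptors, carriers and turnover proteins of retinoids and were taken by gene symbol. They were the retinoic acid receptor genes Rara, Rarb and Rarg, the carrier genes Rbp4, Crabp1 and Crabp2, the uptake receptor gene Stra6, and the turnover genes Dhrs3 and Cyp26b1. Their messenger RNA was counted in C3H10T1/2 cells, a mouse embryonic mesenchymal line that can form bone, cartilage and fat cells in culture. OB stands for osteoblast induction, with 4 libraries made after 3 days in medium that held dexamethasone (a synthetic glucocorticoid), ascorbic acid at 50 µM, β-glycerophosphate at 10 mM and penicillin-streptomycin. The same line without induction, also in medium with serum, gave the 3 control libraries. The day on which the control cells were taken is not given. The comparison asked how early osteoblast induction changes expression. The labels call the cells mesenchymal stem cells, and the cell line is the only source named. Whether cultures were started separately is not stated beyond the word biological in the design text.

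Retinoic acid is made from vitamin A (retinol) inside cells and acts through nuclear receptors. Retinol travels in blood on the RBP4 protein and can enter cells through the STRA6 receptor. Retinol dehydrogenases such as RDH10 oxidise it to retinal, DHRS3 reduces retinal back to retinol, and enzymes such as ALDH1A1 turn retinal into retinoic acid. CRABP1 and CRABP2 bind retinoic acid in the cytosol, RARs paired with RXRs bind it in the nucleus, and CYP26 enzymes oxidise and inactivate it. In the skeleton the pathway is known for restraining cartilage formation and for limb patterning, in which CYP26B1 clears retinoic acid.

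The best known response element of the pathway is a direct repeat of 2 hexamers with a spacer of 5 bases, called DR5, and RARβ is its textbook target. Both strands of the 250 bases before each annotated start were searched for pairs of hexamers in the same direction with NNNNN between them. The hexamers allowed were AGGTCA, the variant AGTTCA, the variant GGTTCA and the variant GGGTCA. RefSeq (GRCm38.p6) gave 18 starts for 8 of the 9 genes. Of the 18 windows only 1, of Rarb, held a DR5 match, against 0.0883% of 32851 windows of the same length over all genes. Among the pathway genes named below that have windows in the table, Cyp26a1, the other classical retinoic acid target of the family, also held one. The windows of Rarb and Cyp26a1 are shown because they carry this element, with the match in capitals, and both genes were close to silent in all 7 libraries. The Dhrs3 window before its first annotated start is shown because Dhrs3 was higher in OB within each label set. Its capitals mark AGAACA, one hexamer of the glucocorticoid response element, found on either strand in 16.1% of all windows. The other 2 Dhrs3 windows held none, and 2 windows of Stra6, which passed in none of the settings that tested it, held 1 and 2. A match is a description of letters and not evidence of binding.
Rarb, chr14:16575477-16575726, minus strand: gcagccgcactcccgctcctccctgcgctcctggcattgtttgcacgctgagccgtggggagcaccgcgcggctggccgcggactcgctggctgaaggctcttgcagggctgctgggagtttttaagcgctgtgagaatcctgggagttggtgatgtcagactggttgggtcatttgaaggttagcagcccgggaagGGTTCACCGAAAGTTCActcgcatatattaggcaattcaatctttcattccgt
Cyp26a1, chr19:37697558-37697807, plus strand: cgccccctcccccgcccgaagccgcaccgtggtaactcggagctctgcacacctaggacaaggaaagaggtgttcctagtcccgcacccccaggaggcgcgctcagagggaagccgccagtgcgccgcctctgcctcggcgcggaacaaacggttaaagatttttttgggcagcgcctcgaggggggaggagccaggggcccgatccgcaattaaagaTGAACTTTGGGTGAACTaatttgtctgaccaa
Dhrs3, chr4:144892577-144892826, plus strand: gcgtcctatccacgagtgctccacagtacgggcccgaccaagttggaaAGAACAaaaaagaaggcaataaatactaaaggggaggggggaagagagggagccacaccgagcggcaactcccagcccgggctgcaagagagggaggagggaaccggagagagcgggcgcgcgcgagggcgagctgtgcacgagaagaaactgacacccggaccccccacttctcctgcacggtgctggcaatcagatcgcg
The Rarb element ended 36 bases before the start, and that of Cyp26a1 lay on the opposite strand and ended 15 bases before it.

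Levels are given as CPM (each count divided by its scaled library total), and between genes as TPM, which also divides by exon length. Total counts were 21213328 to 43403730 in OB and 25689889 to 46530017 in control libraries, so that 3 counts equal 0.0638 to 0.139 CPM. The submitters' descriptions start with C1 for OB 1 and control 1, with C2 for OB 2 and control 2, and with no C number for OB 3, OB 4 and control 3. These label sets are of unstated meaning, and several of the genes below differ more between label sets than between groups. The table numbers its columns, and their groups rest on the sequence in which the command in its header names the inputs. Summed CPM of 10 mesenchymal markers was 22481 to 32592 in OB and 29428 to 38870 in control, while 8 epithelial markers summed to at most 1.34 and 3.58 CPM. The 10 osteoblast markers summed to 246 to 821 CPM in OB and 495 to 717 CPM in control, and 0 of the 6 tested were called. The 10 adipocyte markers summed to 101 to 184 CPM in OB and 46.1 to 74.1 CPM in control. Of the 5 tested, 2 were called higher, against 4.32% of all genes tested, although Adipoq did not exceed 2.25 CPM in any library. The 10 proliferation markers summed to 377 to 554 CPM in OB and 866 to 2438 CPM in control, and control 3 was highest. All 10 were called lower, against 3.72% of all genes tested. The glucocorticoid-induced gene Fkbp5 had 358 to 444 CPM in OB and 14.5 to 49.3 CPM in control.

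None of the 9 genes passed the test across all libraries. The low-count filter kept 6 of them, Rara, Rarg, Crabp2, Stra6, Dhrs3 and Cyp26b1, and left out Rarb, Rbp4 and Crabp1. By edgeR's quasi-likelihood test with Benjamini-Hochberg adjustment, 0 of these 6 had adjusted p under 0.05, against 8.04% of 15441 genes tested (4.32% higher and 3.72% lower). At an unadjusted p under 0.05 it was 1 of 6, Rarg, against 25.2% of all genes tested. DESeq2 also called 0, against 12.9% of all genes. Limma-voom, run with a quality weight for each library, called Rarg alone, against 15.1%. The replicate block called Cyp26b1 alone, against 8.76% of all genes, the label-set block called Dhrs3 alone, against 17.4%, and libraries with no C number called Dhrs3 alone, against 40.1%. None of the 6 was called with DESeq2 size factors, upper-quartile scaling or no filter, which called 8.06%, 8.01% and 4.72% of all genes, nor among C1 and C2 libraries (9.67%). Without control 1, 2 or 3 none was called, against 7.46%, 1.87% and 6.72% of all genes, and without OB 1, 2, 3 or 4 none was called, against 2.09%, 3.59%, 3.93% and 3.48%. Stra6 could not be tested without OB 2 or among libraries with no C number. The groups did not overlap for 1 of the 6, again Rarg, against 25.5% of all genes tested and 12.3% with OB lower. Of the 6 log2 fold changes of OB over control, 5 were negative and 1 was positive, with a median of -0.34 against 0.00 over all genes tested.

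**Figure D1:**
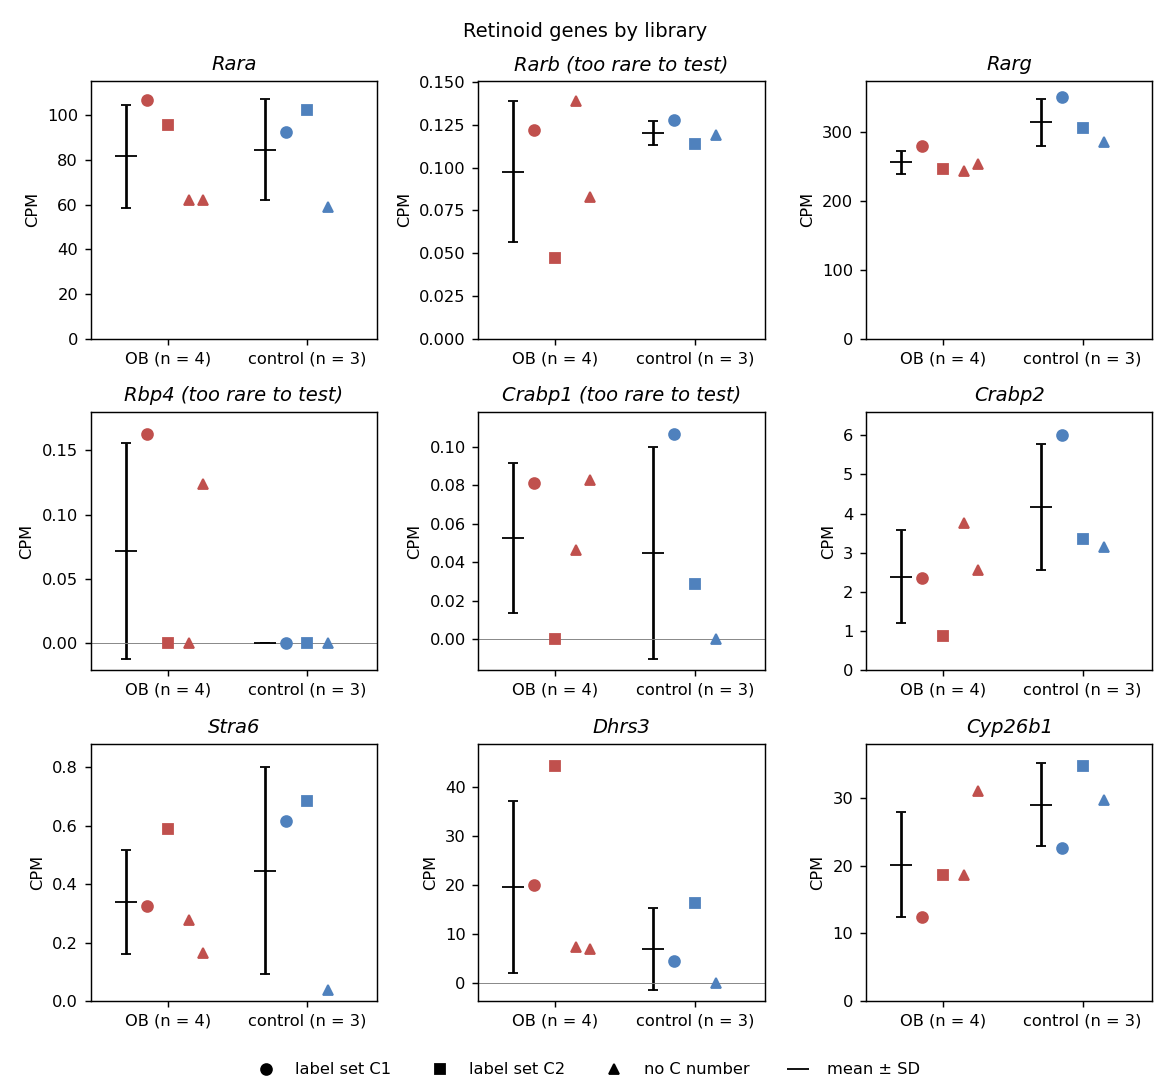
CPM of the 9 retinoid genes in each library (vertical axes in CPM, a scale per gene), with OB left and control right, symbols for label sets, and bars for the mean ± SD. OB libraries of Rarg all lie below the control libraries, and Rarb, Rbp4 and Crabp1 stay under 0.2 CPM. Relative to its mean, Dhrs3 spreads most within groups among the genes tested.

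Rarg was the main receptor gene in these cells. It stood at 279, 247, 243 and 254 CPM in OB 1 to 4 and at 350, 306 and 285 CPM in control 1 to 3. Every OB library was below every control library, by a small margin between OB 1 and control 3. The means were 256 ± 16.4 CPM (SD, n = 4) in OB and 313 ± 33.5 CPM (SD, n = 3) in control. The log2 fold change was -0.29 ± 0.11 (SE), with a 95% interval of -0.55 to -0.04 and edgeR adjusted p = 0.148, so that the difference did not pass over all genes. It did by limma-voom with its quality weights for libraries (adjusted p = 0.0482), which called 15.1% of all genes. Within label sets the OB to control ratio of CPM was 0.798 in C1, 0.807 in C2 and 0.874 among libraries with no C number. Rarg (ENSMUSG00000001288) lies at 102234938 to 102257517 on the minus strand of chromosome 15 of mm10.

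Rara, which encodes the broadly expressed receptor RARα, followed the label sets and not the groups. It stood at 107, 95.7, 62.0 and 62.0 CPM in OB 1 to 4 and at 92.7, 102 and 59.0 CPM in control 1 to 3. The libraries with no C number were the 3 lowest, in both groups, and the groups overlapped fully. The log2 fold change was -0.05 ± 0.26 with a 95% interval of -0.65 to 0.55 (edgeR adjusted p = 0.921). Its sign turned with the model, at 0.06 under the replicate block and 0.06 under the label-set block. Rara (ENSMUSG00000037992) lies at 98927818 to 98974942 on the plus strand of chromosome 11.

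Rarb, the retinoic acid-induced receptor gene whose window with the DR5 element is shown above, was close to silent. It had 3, 2, 3 and 2 counts in OB 1 to 4 and 6, 4 and 3 counts in control 1 to 3. Pooled over libraries this is 0.0885 CPM in OB (95% exact Poisson interval 0.0424 to 0.163) and 0.121 CPM in control (0.0645 to 0.207). The intervals overlap, and they cover counting error only. Of the Rarb exon bases 38.4% overlap Top2b on the opposite strand, and the counting command set neither strand nor overlap options. By the counting program's default, fragments that match both genes equally are counted for neither. The counts of Rarb can thus miss fragments from these bases, and its TPM, which divides by all exon bases, can be too low. Rarb (ENSMUSG00000017491) lies at 16430839 to 16819156 on the minus strand of chromosome 14.

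Per exon length the 3 receptors were of very unequal abundance. Rarg averaged 213 ± 14.8 TPM (SD, n = 4) in OB and 253 ± 32.9 TPM (SD, n = 3) in control. Rara averaged 65.9 ± 17.0 TPM in OB and 66.9 ± 19.1 TPM in control (SD, n = 4 and n = 3), and Rarb stayed at or under 0.0956 TPM in every library. Rarg made up 72.5% to 80.7% of the summed receptor TPM in OB and 75.4% to 83.1% in control, and these ranges overlap. The summed RAR level was 258 to 316 TPM in OB and 268 to 363 TPM in control. The summed level of the RXR partner genes was 131 to 220 TPM in OB and 105 to 141 TPM in control, and the ranges overlap as well. Their main member Rxra did not pass across all libraries, at 173, 252, 115 and 122 CPM in OB 1 to 4 and 118, 131 and 93.3 CPM in control 1 to 3 (log2 fold change 0.54 ± 0.28, edgeR adjusted p = 0.275). Under the label-set block Rxra passed (log2 fold change 0.59, adjusted p = 0.0274).

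Among the carriers Crabp2 alone was measurable. Crabp2, which delivers retinoic acid to RARs, stood at 2.36, 0.869, 3.75 and 2.56 CPM in OB 1 to 4 and at 6.02, 3.36 and 3.13 CPM in control 1 to 3. OB 2 was lowest and control 1 highest, and OB 3 was above 2 of the 3 control libraries. The means were 2.38 ± 1.18 CPM (SD, n = 4) in OB and 4.17 ± 1.61 CPM (SD, n = 3) in control. The log2 fold change was -0.82 ± 0.47 with a 95% interval of -1.90 to 0.25 (edgeR adjusted p = 0.313). The OB to control ratio was 0.391 in C1 and 0.259 in C2, against 0.997 among libraries with no C number. Without control 1 the log2 fold change was -0.47, and without OB 2 it was -0.53. Crabp2 (ENSMUSG00000004885) lies at 87948666 to 87953376 on chromosome 3.

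Crabp1, which binds the same ligand in the cytosol, had 2, 0, 1 and 2 counts in OB 1 to 4 and 5, 1 and 0 counts in control 1 to 3. Pooled, this is 0.0443 CPM in OB (95% exact Poisson interval 0.0144 to 0.103) and 0.0559 CPM in control (0.0205 to 0.122). No difference was detectable at this depth. Rbp4, the plasma carrier of retinol that liver and fat cells secrete, had 4, 0, 0 and 3 counts in OB 1 to 4 and 0 counts in each control library. A count of 0 allows up to 3 counts, which is 0.0638 to 0.119 CPM in a control library. OB 1 stood barely above the floor at 0.162 CPM, and OB 4 stood at its own floor of 3 counts, 0.124 CPM. No fold is therefore given. Crabp1 (ENSMUSG00000032291) lies at 54764748 to 54773110 on chromosome 9 and Rbp4 (ENSMUSG00000024990) at 38116620 to 38125321 on chromosome 19.

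Stra6, the cell surface receptor for RBP4 and itself a retinoic acid-responsive gene, was rare. It had 8, 25, 6 and 4 counts in OB 1 to 4 and 29, 24 and 1 counts in control 1 to 3, or 0.325, 0.587, 0.278 and 0.165 CPM in OB and 0.617, 0.683 and 0.0396 CPM in control. Control 3 was lowest of all libraries and control 2 highest, so that the OB values lay inside the control range. The log2 fold change was -0.39 ± 0.71 with a 95% interval of -2.03 to 1.24 (edgeR adjusted p = 0.775). It was -0.87 without control 3, -0.03 without control 2 and -0.05 under the label-set block. Among libraries with no C number the ratio was 5.51, with a 95% exact binomial interval of 0.784 to 239 that rests on 1 control count. Stra6 (ENSMUSG00000032327) lies at 58063788 to 58153996 on chromosome 9.

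Dhrs3, the retinal reductase gene, varied most within groups, relative to its mean, of the 6 genes tested. It stood at 20.1, 44.4, 7.36 and 6.94 CPM in OB 1 to 4 and at 4.51, 16.4 and 0.119 CPM in control 1 to 3. The group ranges overlapped, because control 2 was above OB 3 and OB 4. Within each label set, however, every OB library was above the control library. Each set holds 1 control library, and the share of all genes with such an order was not counted. Set C1 had 20.1 CPM in OB and 4.51 CPM in control, a ratio of 4.45 (95% exact binomial interval 3.78 to 5.25, counting error only). Set C2 had 44.4 CPM in OB and 16.4 CPM in control, a ratio of 2.71 (2.46 to 2.98). Libraries with no C number had 7.14 CPM over both OB libraries and 0.119 CPM in control, a ratio of 60.0 (20.4 to 293) that rests on 3 control counts.

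Across all libraries the log2 fold change of Dhrs3 was 1.49 ± 1.14, with a 95% interval of -1.15 to 4.13 and edgeR adjusted p = 0.456. With the label set as a term in the model it was 2.50, and Dhrs3 passed (edgeR adjusted p = 0.0392). That model called 17.4% of all genes. Under the replicate block, in which OB 4 has no control partner, it was 2.47 and did not pass (edgeR adjusted p = 0.0792). Among the C1 and C2 libraries alone it was 1.64 (edgeR adjusted p = 0.179), and among those with no C number 5.83. The call in that last subset rests on 1 control library with 3 counts, assumed to vary like OB 3 and OB 4. Dhrs3 passed the low-count filter there only through these OB libraries, so that the call is no support for a difference. Leaving out single libraries gave log2 fold changes of 0.71 without OB 2 to 3.03 without control 2, none of which passed. Dhrs3 (ENSMUSG00000066026) lies at 144892827 to 144928209 on the plus strand of chromosome 4, and none of its exon bases overlap another gene.

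**Figure D2:**
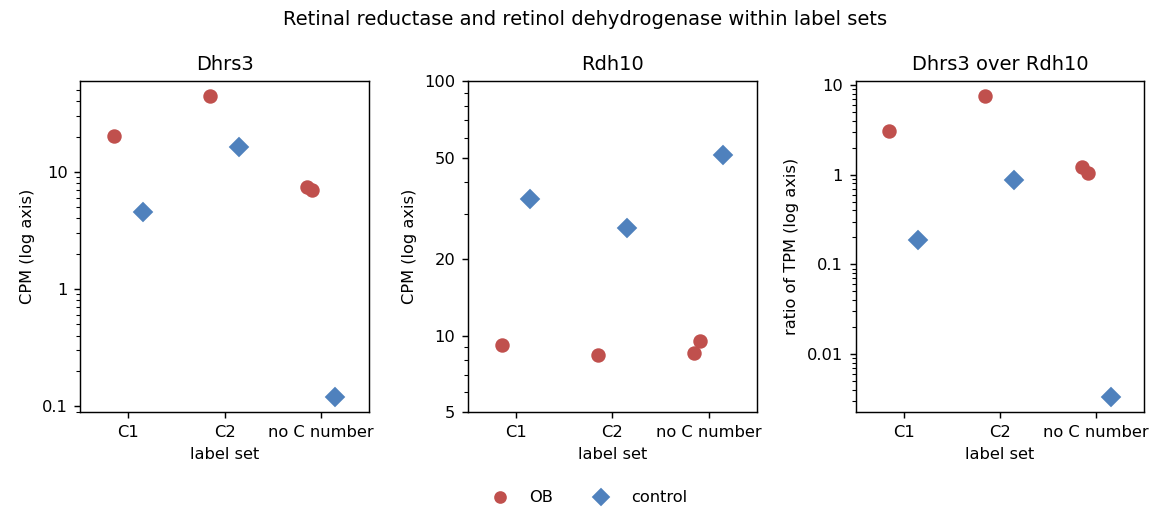
Dhrs3 and Rdh10 in CPM and the ratio of their TPM (log vertical axes) by label set, with OB circles left and control diamonds right. In each label set Dhrs3 is higher and Rdh10 lower in OB, and the ratio is 1.04 to 7.52 in OB against 0.00330 to 0.882 in control. Across label sets the groups overlap for Dhrs3 and do not for Rdh10.

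Dhrs3 and Rdh10 catalyse opposite steps between retinol and retinal, and Rdh10 fell in all OB libraries. Rdh10 stood at 9.18, 8.38, 8.52 and 9.51 CPM in OB 1 to 4 and at 34.3, 26.4 and 51.2 CPM in control 1 to 3. The OB libraries were within a narrow range and far below the lowest control library. The log2 fold change was -2.07 ± 0.22 (edgeR adjusted p = 0.00408), and the call held without each library in turn (adjusted p up to 0.0199). The ratio of Dhrs3 to Rdh10 TPM was 3.11, 7.52, 1.23 and 1.04 in OB 1 to 4 and 0.187, 0.882 and 0.00330 in control 1 to 3. The groups do not overlap in this ratio, but they also did not overlap in Rdh10 alone, while those of Dhrs3 did. Of all genes tested, 25.5% did not overlap between groups, and the share among ratios of genes was not counted. The ratio was chosen after its values were seen and is given without a test.

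The genes whose centred log2 CPM lay closest to that of Dhrs3 over the 7 libraries were Cacna1g, Epas1 and Slit3. They were picked out after the values were seen, among 10291 candidates, with root mean square differences of 0.41, 0.44 and 0.51 on the log2 scale. Epas1, which encodes the hypoxia-inducible factor HIF-2α, stood at 160, 445, 38.9 and 35.5 CPM in OB 1 to 4 and at 36.0, 84.8 and 1.98 CPM in control 1 to 3. As in Dhrs3, OB 2 was highest and control 3 lowest. The adipocyte regulator gene Cebpa also had its highest level in OB 2 at 45.2 CPM and its lowest in control 3 at 3.29 CPM. The summed adipocyte markers, a list that holds Cebpa, were 138, 184, 109 and 101 CPM in OB 1 to 4. In control 1 to 3 they were 60.5, 74.1 and 46.1 CPM. Control 2 was thus below OB 3 and OB 4 in this sum, while in Dhrs3 it was above them. The part of such cells in the Dhrs3 values was not tested. In bulk RNA, fewer cells of a type and less RNA per cell cannot be told apart.

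Cyp26b1, which inactivates retinoic acid, was the CYP26 gene these cells used. It stood at 12.5, 18.6, 18.6 and 31.0 CPM in OB 1 to 4 and at 22.7, 34.7 and 29.7 CPM in control 1 to 3. OB 1, 2 and 3 were below all control libraries, while OB 4 was above control 1 and control 3. The means were 20.2 ± 7.80 CPM (SD, n = 4) in OB and 29.0 ± 6.06 CPM (SD, n = 3) in control. The log2 fold change was -0.53 ± 0.29 with a 95% interval of -1.20 to 0.15 (edgeR adjusted p = 0.307). Under the replicate block, which leaves OB 4 without a partner, it was -0.81 and passed (edgeR adjusted p = 0.0227), while that model called 8.76% of all genes. With the label-set block, which keeps OB 4 beside control 3, it was -0.64 and did not pass (edgeR adjusted p = 0.106). Without OB 4 it was also -0.81 but did not pass (edgeR adjusted p = 0.107). The OB to control ratio was 0.550 in C1 and 0.535 in C2, against 0.847 among libraries with no C number. Cyp26b1 (ENSMUSG00000063415) lies at 84571414 to 84593908 on the minus strand of chromosome 6.

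Its relative Cyp26a1, the other gene shown with a DR5 element, was too rare to test. It had 4, 5, 2 and 9 counts in OB 1 to 4 and 2, 1 and 2 counts in control 1 to 3. OB 3 and all control libraries were under the floor of 3 counts. Pooled over libraries, 20 counts in OB and 5 in control give 0.177 and 0.0466 CPM, and no difference between groups is drawn from them.

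**Figure D3:**
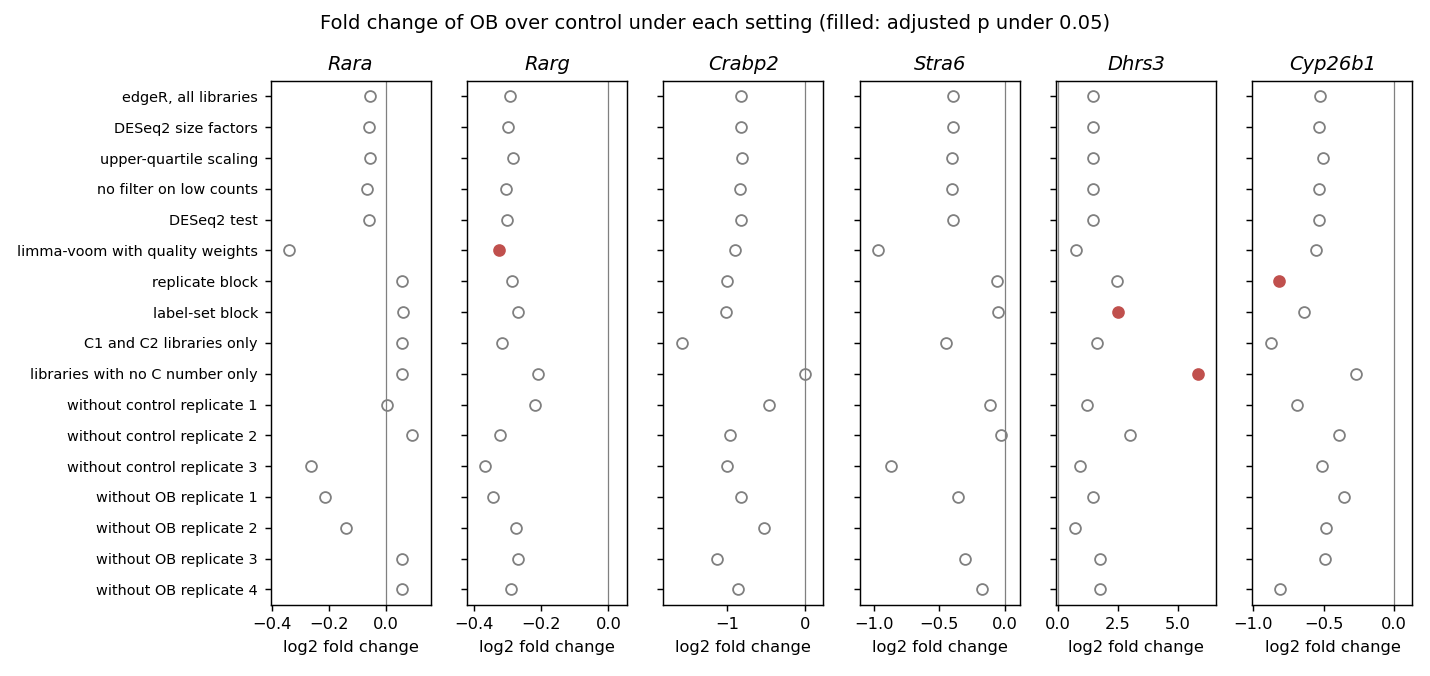
Log2 fold change of OB over control (horizontal axes, a scale per gene) of the 6 genes tested under each setting, from the fit over all libraries down to those that leave out 1 library. Filled points passed at adjusted p under 0.05, which was so for Rarg by limma-voom, Dhrs3 with a label-set block and Cyp26b1 under the replicate block. The point of Dhrs3 among libraries with no C number is filled too, but is no support for a difference. It rests on 1 control library with 3 counts, and Dhrs3 passed the low-count filter there only through OB.

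In order of mean TPM over all libraries the genes ran from Rarg at 230.1 over Rara at 66.3 to Dhrs3 at 16.9, Cyp26b1 at 15.7 and Crabp2 at 8.36. Stra6, Crabp1, Rbp4 and Rarb followed at 0.230, 0.219, 0.113 and 0.0714 TPM. Dhrs3 and Cyp26b1 are neighbours in this order that do not differ beyond their spread. Those below Crabp2 likewise overlap with each other in TPM. Variation within groups also differed, with a coefficient of variation of 6.41% in OB and 10.7% in control for Rarg, against 89.1% in OB and 120% in control for Dhrs3.

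Elsewhere in the pathway the genes called were the enzyme genes Rdh10, Aldh1a1 and Aldh1a7, the carrier gene Rbp2 and the coactivator gene Kat2b. The filter kept 41 of 59 further pathway genes. Among these, 4 were called higher and 1 lower in OB, leaving 36 below the threshold. The share called was 5 of 41, against 8.04% of all genes, and the median log2 fold change was 0.07 against 0.00 over all genes tested. Under the replicate block 7 were higher and 2 lower, against 8.76% of all genes called. Under the label-set block it was 10 and 3, against 17.4%. Of the genes listed as retinal dehydrogenases, Aldh1a1 stood at 165, 119, 155 and 102 CPM in OB 1 to 4. In control 1 to 3 it stood at 0.510, 0.797 and 0.634 CPM (log2 fold change 7.71 ± 0.28, edgeR adjusted p = 2.82e-05). Aldh1a7 also rose, at 8.01 on the log2 scale (edgeR adjusted p = 0.00017). It stands in this list, but whether its product acts on retinal was not tested. Aldh1a3, the third tested gene of this list, did not pass. Kat2b, a histone acetyltransferase gene whose product can act as a coactivator of nuclear receptors, rose to 72.1 ± 12.7 CPM (SD, n = 4) in OB, against 43.7 ± 3.70 CPM (SD, n = 3) in control. Its log2 fold change was 0.72 ± 0.15 (edgeR adjusted p = 0.0305), and the call ended without any 1 library other than OB 3 (adjusted p up to 0.0915).

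Rbp2, a cytosolic retinol carrier gene best known from the intestine, was near absent in control cells. It had 58, 10, 17 and 11 counts in OB 1 to 4, against 0, 0 and 1 in control 1 to 3. Pooled over libraries, OB stood 91.2 times above control, with an exact binomial 95% interval of 16.0 to 3641 that covers counting error only, and OB 1 held 58 of the 96 OB counts. Rbp2 is counted among the 4 genes called higher (edgeR adjusted p = 0.0327). It passed the low-count filter only through the OB libraries, where it had to differ, so that this call is no support for a difference. The call ended without any of the control libraries (adjusted p up to 0.112). Without OB 1, OB 3 or OB 4 the filter left it out.

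Adh1, an alcohol dehydrogenase gene that can oxidise retinol, shared the label-set order of Dhrs3. It stood at 13.8, 23.8, 4.21 and 6.24 CPM in OB 1 to 4 and at 3.02, 5.97 and 0.198 CPM in control 1 to 3. It did not pass across all libraries (log2 fold change 1.96 ± 0.94, edgeR adjusted p = 0.236). By edgeR it passed under the replicate block (2.53, adjusted p = 0.0255), the label-set block (2.64, adjusted p = 0.0156) and among C1 and C2 libraries (2.08, adjusted p = 0.0412). Lpl, a lipase gene that helps cells take up retinyl esters, passed with either block, but not among C1 and C2 libraries or when single libraries were left out. Its log2 fold change was 1.44 ± 0.84 across all libraries (edgeR adjusted p = 0.325) and 1.79 under the replicate block (adjusted p = 0.0262). Fabp5, which can carry retinoic acid to another nuclear receptor, was at -0.59 ± 0.23 on the log2 scale (edgeR adjusted p = 0.160). It passed by edgeR under the replicate block at -0.63 (adjusted p = 0.0233) and among C1 and C2 libraries at -0.63 (adjusted p = 0.0395). With the label-set block Fabp5 passed at -0.68 (edgeR adjusted p = 0.00712). The most abundant tested genes of the uptake and ester lists did not pass across all libraries. Scarb1, a lipoprotein receptor gene, was at -0.72 on the log2 scale (edgeR adjusted p = 0.324) and passed with the label-set block at -0.81 (adjusted p = 0.0194) but not under the replicate block (adjusted p = 0.0507). Dgat1, which can esterify retinol, was at -0.02 (edgeR adjusted p = 0.941), with a sign that turned under the blocks.

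**Figure D4:**
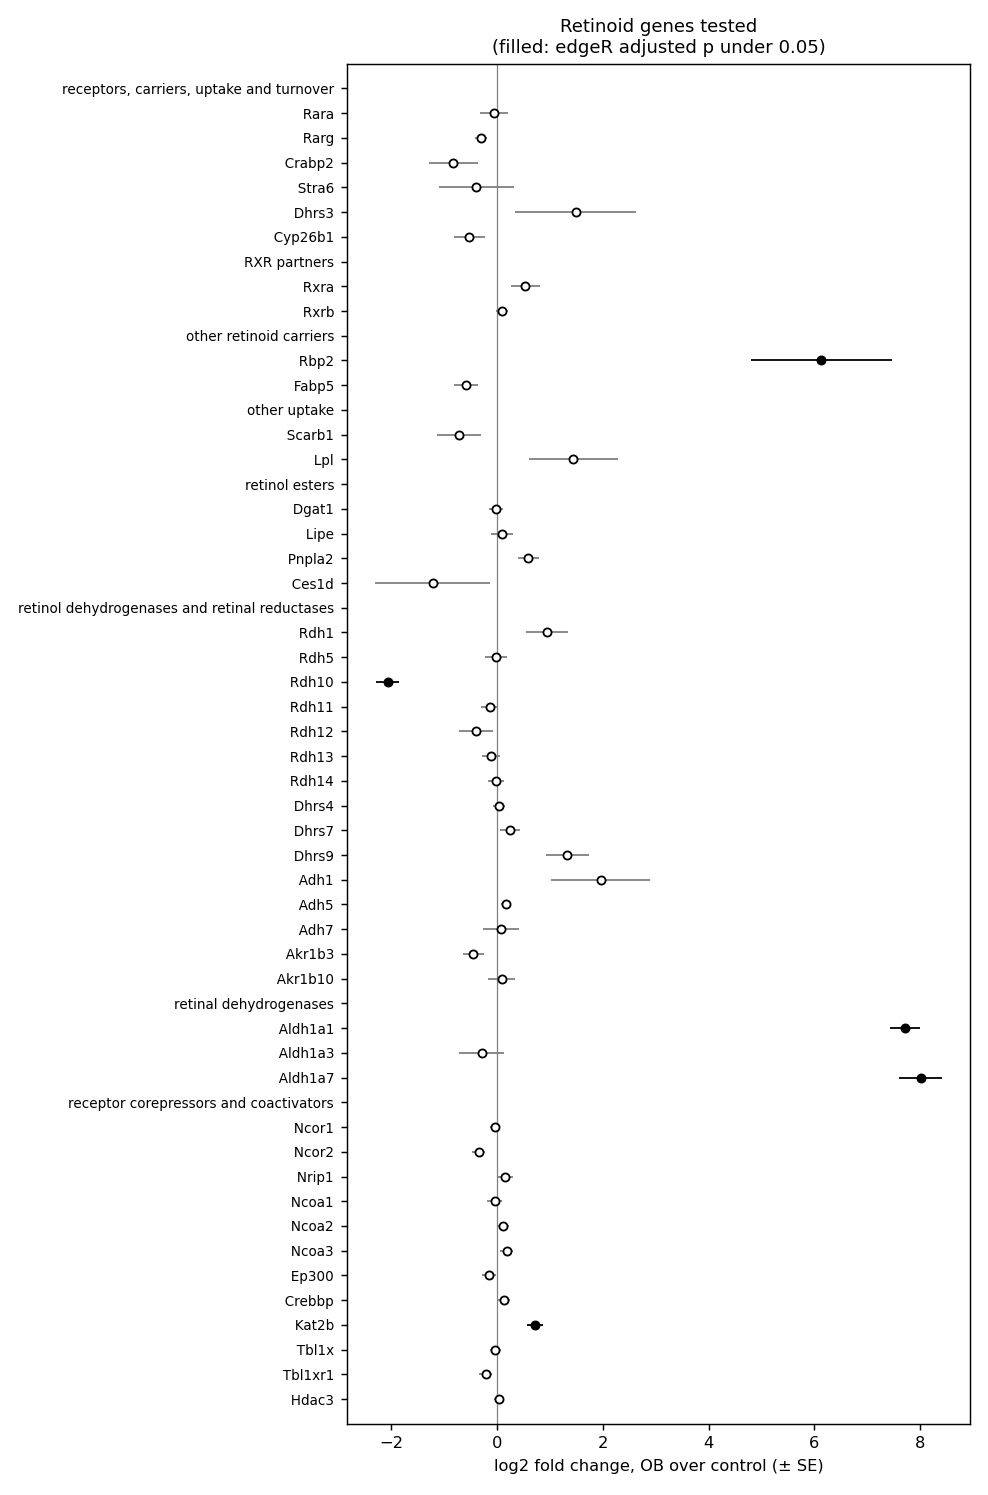
Log2 fold change of OB over control with its SE (horizontal axis) for the 6 retinoid genes and 40 of the 41 further pathway genes tested, by role. Filled points passed at edgeR adjusted p under 0.05, which were Rbp2, Rdh10, Aldh1a1, Aldh1a7 and Kat2b.

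None of the other genes listed as responding to retinoic acid passed by edgeR across all libraries. Of 25 listed genes 15 were tested, and by edgeR 0 were higher and 0 were lower, against 8.04% of all genes called. At an unadjusted p under 0.05 there were 2 higher and 0 lower, against 25.2% of all genes tested. DESeq2 called 1, against 12.9% of all genes, and limma-voom 0, against 15.1%. The replicate block called 2 higher, against 8.76%, and the label-set block 2 higher and 1 lower, against 17.4%. The median log2 fold change was -0.01, against 0.00 over all genes tested. Rarres2, which encodes the adipokine chemerin, stood at 10.6, 12.7, 1.57 and 1.78 CPM in OB 1 to 4 and at 1.74, 1.56 and 0.278 CPM in control 1 to 3. Its log2 fold change was 2.45 ± 0.92 (edgeR adjusted p = 0.145). It passed by edgeR under the replicate block at 2.74 (adjusted p = 0.00773) and among C1 and C2 libraries at 2.81 (adjusted p = 0.00462). With the label-set block Rarres2 passed at 2.75 (edgeR adjusted p = 0.00158).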

How the data were processed

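Per the file headers, the deposited values are fragment counts per gene, which the authors obtained with featureCounts 1.6.4 from paired reads on Ensembl 94 exons. Its command line sets no option for strand, for reads with several hits or for overlapping genes. The submitters' processing notes name Trimmomatic, HISAT2 and mm10. The deposited exon length (another measure in that table, in bases, per the file headers) was used for TPM only. Gene names came from a gene name table, with 54409 of 54532 features matched, and the 123 unnamed held at most 0.0612% of a library.

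The tests used edgeR 4.0.16 in R 4.3.3 (filterByExpr, TMM, quasi-likelihood test of OB against control, no block, Benjamini-Hochberg over 15441 genes, threshold 0.05). The SE is the absolute log2 fold change over the square root of F. Log2 CPM used a prior count of 2. Alternatives were DESeq2 size factors, upper-quartile scaling, no filter, DESeq2 1.42.0 and limma-voom with a quality weight for each library (limma 3.58.1). Further alternatives were blocks on replicate number or label set, fits within label sets and leaving out each library. The fit was tested on simulated data. Named were the 9 members, called genes of the pathway and response lists, and the most abundant gene of each list with none called. Some genes that this rule or these lists hold are not reported here. Other names were chosen after their values were seen. The 9 genes and the lists were chosen with earlier results of these data known.

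Deviations from group means correlated across genes at 0.17, 0.52 and 0.40 for replicate numbers 1, 2 and 3, all over 0.1, although OB 1 correlated more with control 2, at 0.21. The numbers of 1 to 3 follow the label sets. The fit without a block was kept as planned, and values with the replicate block stand beside the results they change. Chi-square per degree of freedom between libraries of a group was 13.6 to 148, and each library counted as 1 replicate. The design text calls the replicates biological; separate cultures are not stated, so a p-value covers only the variation among these libraries.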

Additional observations from a re-analysis of the deposited data

Results flagged for a closer look

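Of 30 genes whose 4 OB libraries were screened, 2 had 1 library far from the others, and chance flags about 1 in 20 groups. Lpl was at 13.1 CPM in OB 2, above 2.50 to 4.18 CPM in the others. Slit3 was at 125 CPM in OB 2, above 14.9 to 26.4 CPM.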

How the results depend on the processing

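Over all genes 667 were higher and 574 lower in OB. The counts were 1292 and 1128 by DESeq2, 1247 and 1081 by limma-voom, 1433 and 1256 with the label-set block and 3053 and 3413 among libraries with no C number, while C1 and C2 libraries gave 1030 higher. Leaving out single libraries gave 190 to 575 higher and 104 to 702 lower. Of the 9 retinoid genes, 1 was higher with the label-set block, 1 was lower by limma-voom and under the replicate block, and leaving out any library gave 0 in each direction. The call of Dhrs3 among libraries with no C number is not counted. It rests on 1 control library, and Dhrs3 passed the filter there only through OB. Of the further pathway genes, 7 were higher and 2 lower under the replicate block, 10 and 3 with the label-set block and 12 and 4 among libraries with no C number. The count lower was also 2 by limma-voom and among C1 and C2 libraries. Leaving out single libraries gave 2 to 4 higher and 1 to 2 lower. Of the response genes, 2 were higher under the replicate block, against 8.76% of all genes called. With the label-set block 2 were higher and 1 lower, against 17.4%. By DESeq2 (12.9% of all genes called) and among C1 and C2 libraries (9.67%) 1 was higher. The counts of response genes also changed among libraries with no C number, where they rest on 1 control library. Leaving out any single library gave 0 and 0. Rara and Dgat1, both near no change, turned sign. Rara was at 0.058 under the replicate block, 0.060 with the label-set block, 0.056 among C1 and C2 libraries and 0.056 among those with no C number, and -0.26 to 0.092 when libraries were left out. Dgat1 was at 0.018 under the replicate block, 0.013 with the label-set block and 0.27 among libraries with no C number, with -0.16 to 0.043 when libraries were left out. The cause of these shifts was not tested. Rarb, Rbp4 and Crabp1 are limited by depth, at 0 to 6 counts a library. Rbp2 gave no value without OB 1, OB 3 or OB 4 or among C1 and C2 libraries, where the filter left it out, nor did Stra6 without OB 2 or among libraries with no C number.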
